A study of Mus musculus with 73 samples.

Results

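The activities described here belong to the enhancers Klf2_E046, Lefty1_E094 and Nanog_E090, each combined with an enhancer from another locus in a three-way reporter assay. Each plasmid in the assay joined a pair of fragments to a promoter, and activity was read in E14tg2a, a mouse embryonic stem cell line. Members were all enhancer-enhancer (EE) combinations in which either fragment was one of the 3 enhancers and the partner came from a different locus. This gave 5411 of the 69206 EE combinations, out of 110180 combinations of any kind. Klf2_E046 was present in 1551 members, Lefty1_E094 in 2514 and Nanog_E090 in 1440, and 94 members joined 2 of the 3. Only 3 members had an activity of 0 in a replicate, 2 in the Fgf5 library and 1 in the Ap1m1 library, and they were left out.

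Each promoter had its own plasmid library, cloned in front of a barcoded GFP reporter, with the pair of fragments placed downstream of it. The 7 developmental promoters were those of Sox2, Klf2, Otx2, Fgf5, Lefty1, Nanog and Tbx3, and the eighth library carried the promoter of the housekeeping gene Ap1m1. All libraries were nucleofected separately into the same untreated E14tg2a line, grown in 2i and LIF medium, in 3 biological replicates on different days, and collected after 24 hours. The plasmids were not integrated, so the fragments acted outside their own chromatin. Members ranged from 436 in the Fgf5 library to 816 in the Lefty1 library, with 758 in the Ap1m1 library. Across the members, replicates of a library correlated with a Pearson's r between 0.61 and 0.91, and those of Ap1m1 with r from 0.65 to 0.69. The number of barcodes behind each activity is unknown here, so no counting error is given.

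Enhancers are short stretches of DNA bound by transcription factors that raise the output of a promoter, and several often lie together around a gene. Developmental promoters depend strongly on such elements, whereas housekeeping promoters are active in most cells and tend to respond less. Klf2 and Nanog encode transcription factors of the naive pluripotent state, and Lefty1 encodes a secreted antagonist of Nodal signalling. Ap1m1 encodes a subunit of the AP-1 clathrin adaptor complex.

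The coordinates of the 3 enhancers are windows of 450 bp each in mm10. The fragments tested were PCR products from primers placed within each window, and were shorter. Klf2_E046 spans chr8:72271222-72271671, outside any annotated gene, 13836 bp from Ap1m1, which is its nearest protein-coding gene, and 47391 bp from Klf2. Lefty1_E094 spans chr1:180933655-180934104, within the annotated span of the long non-coding RNA Gm39715 and 918 bp from Lefty1. Nanog_E090 spans chr6:122770251-122770700, within the gene Slc2a3, which encodes a glucose transporter, and 55618 bp from Nanog. Whether these positions are exonic or intronic was not analysed here. The PCR primers that cut the fragments out of E14tg2a genomic DNA are given 5′ to 3′, since they fix which DNA was tested. They are in lower case, with nothing capitalised.

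Klf2_E046 forward: tctggttaaatgtgctaatgccttcag
Klf2_E046 reverse: tagagagatgcatcggtagataagctc
Lefty1_E094 forward: tttcttacttagccctcatttccctcg
Lefty1_E094 reverse: cgtactgaatctgggacttggttacac
Nanog_E090 forward: cagttcctaggaagtgtgtatccacg
Nanog_E090 reverse: cattgaagggagaacaatcaagggttg

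The 3 enhancers were chosen for their effect on the Ap1m1 promoter when combined with control fragments. That effect is the boost index, the log2 ratio of the median activity of an enhancer's enhancer-control (EC) combinations over the median of the control-control (CC) combinations of the same library. These values are therefore a description only. On Ap1m1, Klf2_E046 had boost indices of 1.22, 1.15 and 1.04 in the 3 replicates, the highest mean (1.13) of 57 enhancers. Lefty1_E094 followed with 1.014, 1.103 and 0.934, and Nanog_E090 ranked 5 with 0.83, 0.99 and 0.78. Pou5f1_E081 (0.91 ± 0.18, SD, n = 3) and Tbx3_E203 (0.91 ± 0.12) lay between them, and Otx2_E111 (0.81 ± 0.11) came next. The spread between replicates did not separate the third to sixth enhancers in this order.

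The boost index of Klf2_E046 on Ap1m1 rested on only 4 EC combinations, all with Klf2_E046 in position 2, and these ranged from 0.37 to 1.44. By contrast, Lefty1_E094 had 122 EC combinations and Nanog_E090 had 63. In both of these the median of the EC combinations was higher in position 2 than in position 1, at 1.13 against 0.74 for Lefty1_E094 and 1.01 against 0.65 for Nanog_E090. Klf2_E046 had no EC combination in the Sox2 library and 1 in the Fgf5 library. On the developmental promoters the same 3 enhancers were not at the top: Lefty1_E094 ranked between 8 and 12, Nanog_E090 between 7 and 9, and Klf2_E046 between 11 and 17 in the 5 libraries other than Sox2 and Fgf5. Pou5f1_E081, by contrast, was first in all developmental libraries but Sox2, where it was second.

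To ask what the chosen enhancers added in a pair without using the values that chose them, a gain was calculated. The gain is the log2 ratio of the activity of the pair over the partner's own EC median in the same position, so it holds no EC value of the chosen enhancer. On Ap1m1, Lefty1_E094 had a median gain of 0.85 ± 0.04 (SD over replicates, n = 3) across 50 partners, the highest of 59 enhancers. Its median gains in the 3 replicates were 0.85, 0.87 and 0.79. Nanog_E090 had a median gain of 0.50 ± 0.09 over 39 partners and ranked 12, and Klf2_E046 had 0.44 ± 0.11 over 49 partners and ranked 19. The median over all pairs of enhancers from different loci was 0.28.

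Tested pair by pair with limma at a 5% false discovery rate, 46 of 48 Lefty1_E094 pairs on Ap1m1 had a gain above 0. This compared with 32 of 47 pairs of Klf2_E046 and 25 of 37 pairs of Nanog_E090, against a background of 45.3% of all 3040 enhancer-partner pairs tested in that library. No pair of the 3 enhancers was called below 0, against 3.55% of all pairs. Pairs among the 3 were not counted, since the partner's EC values were then also used in the choice. The counts of Klf2_E046 and Nanog_E090 fell when a replicate was left out, and were lowest without replicate 2, at 14 and 13. Without replicate 1, that of Nanog_E090 was 15. The background share with a replicate left out was not calculated.

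With some partners no gain was called. Nanog_E090 with Klf2_E058 had gains of -0.20, -0.04 and 0.19 on Ap1m1 (limma adjusted p = 0.913). With Pou5f1_E081 the 3 gains were all negative, at -0.33, -0.11 and -0.16, and their mean of -0.20 ± 0.10 (SE) did not pass the test (adjusted p = 0.106). With Nodal_E159 they were -0.11, -0.10 and -0.14 (adjusted p = 0.646). A gain in these pairs was not detected, which does not show that there was none. In the Nanog library, the gains of Nanog_E090 with Klf2_E058 (-0.31, adjusted p = 0.0172) and with Pou5f1_E081 (-0.33, adjusted p = 0.007) were called below 0. For Klf2_E046, the pairs with Nanog_E074 (mean gain -0.04, adjusted p = 0.791) and with Pou5f1_E081 (0.10, adjusted p = 0.411) also missed the threshold, and in both the replicates lay on either side of 0.

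With the same partners Lefty1_E094 pairs were above the partner. With Klf2_E058 its gains on Ap1m1 were 0.74, 0.65 and 0.64 (adjusted p = 6.67e-08). With Pou5f1_E081 they were 0.56, 0.58 and 0.52 (adjusted p = 8.41e-08), and with Nanog_E074 they were 0.66, 0.60 and 0.51 (adjusted p = 1.07e-06). On each of these partners, all 3 replicates of Lefty1_E094 lay above all 3 replicates of the other chosen enhancer measured there. The difference between the chosen enhancers was not tested.

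The gain was smaller on Ap1m1 than on the developmental promoters for most pairs. Median gains of Lefty1_E094 ranged from 1.14 (Otx2) to 2.64 (Fgf5) over the 7 developmental libraries, those of Nanog_E090 from 1.05 (Klf2) to 3.13 (Fgf5), and those of Klf2_E046 from 0.96 (Otx2) to 2.15 (Sox2). In limma, the gain on Ap1m1 was lower than the mean of the 7 developmental libraries in 39 of 44 pairs of Lefty1_E094 and in 20 of 24 pairs of Nanog_E090, and higher in none, although for Lefty1_E094 this direction turned when gains were scaled by library, as given below. The background was 62.3% lower and 3.06% higher among all 2090 pairs measured in all 8 libraries. For Klf2_E046, which is rare in the Sox2 and Fgf5 libraries, only 7 pairs could be tested and 5 were lower. Without these 2 libraries, an alternative chosen after seeing the data, 37 of 44 Klf2_E046 pairs were lower (background 64.2%) and none was higher (background 4.1%).

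On each developmental promoter nearly every pair had a gain above 0, as did most pairs of other enhancers. In the Sox2 library all 48 Lefty1_E094 pairs, all 16 Klf2_E046 pairs and 25 of 28 Nanog_E090 pairs were called above 0 (background 85.8%), and none below 0 (background 1.25%). In the Fgf5 library the counts were 46 of 46, 10 of 10 and 27 of 28 (background 84.5%), again with none below 0 (background 2.67%). In the Lefty1 library they were 50 of 50, 50 of 52 and 39 of 42 (background 83.0%, and 1.7% below 0), and in the Tbx3 library 50 of 50, 50 of 51 and 30 of 34 (background 85.7%, and 1.49% below 0). No member was called below 0 in either.

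The background was lower in the other libraries. In the Klf2 library 51 of 51 Lefty1_E094 pairs, 48 of 53 Klf2_E046 pairs and 27 of 31 Nanog_E090 pairs were called above 0 (background 66.5%, and 2.79% below 0). In the Otx2 library the counts were 50 of 50, 41 of 47 and 29 of 33 (background 67.0%, and 4.05% below 0). In the Nanog library they were 50 of 50, 45 of 49 and 29 of 36 (background 67.2%), and 2 Nanog_E090 pairs were called below 0 (background 3.73%). Lefty1_E094 was the only 1 of the 3 called above 0 with every partner tested on all 7 developmental promoters.

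The largest differences for Nanog_E090 were with Nodal_E157 and Nodal_E162, fragments near the gene of the signalling ligand Nodal. With Nodal_E157 the mean gain was 0.70 on Ap1m1 and between 1.52 and 4.09 on the developmental promoters, a difference of -2.15 ± 0.14 (SE, adjusted p = 7.4e-11). With Nodal_E162 the difference was -1.91 ± 0.14 (adjusted p = 2.73e-10). Lefty1_E094 differed most with Fgf5_E037 (-1.71 ± 0.15, adjusted p = 6.59e-09) and with Tbx3_E205 (-1.57 ± 0.17, adjusted p = 8.41e-08). Klf2_E046 differed most with Tbx3_E206 (-1.65 ± 0.21, adjusted p = 8.75e-07) and with Otx2_E115 (-1.40 ± 0.16, adjusted p = 2.63e-07). With gains scaled by library, the call was lost for Lefty1_E094 with Tbx3_E205 (-0.04 library SDs, adjusted p = 0.82) and for Klf2_E046 with Otx2_E115 (-0.32, adjusted p = 0.159).

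Gains spanned different ranges in the libraries. After each library's gains were centred on their median and divided by their SD, an alternative also chosen after seeing the data, 23 of 44 Lefty1_E094 pairs were higher on Ap1m1 and 1 was lower. The background on this scale was 32.8% higher and 35.4% lower. Nanog_E090 kept its direction, with 16 of 24 pairs lower and 1 higher. For Klf2_E046, 2 of 7 pairs were lower and none was higher. With this scaling and without the Sox2 and Fgf5 libraries, 17 of 44 Klf2_E046 pairs, 2 of 48 Lefty1_E094 pairs and 19 of 29 Nanog_E090 pairs were lower (background 33.6%), and 4, 18 and 1 were higher (background 31.1%).

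For some partners no difference between Ap1m1 and the developmental promoters was called. Lefty1_E094 with Klf2_E058 gained 0.68 on Ap1m1 and from 0.52 to 0.75 on the developmental promoters, a difference of 0.05 ± 0.06 (adjusted p = 0.495). With Pou5f1_E081 the difference was -0.09 ± 0.05 (adjusted p = 0.112) and with Nanog_E074 it was -0.10 ± 0.07 (adjusted p = 0.207). Nanog_E090 with Klf2_E058 gained -0.02 on Ap1m1 and from -0.31 to 0.46 elsewhere, and the difference of -0.11 ± 0.12 also missed the threshold (adjusted p = 0.413). These tests do not show that the gains were equal. With gains scaled by library, those of Lefty1_E094 were called higher on Ap1m1, by 1.30 library SDs with Klf2_E058 (adjusted p = 2.98e-09), by 0.92 with Pou5f1_E081 (adjusted p = 1.74e-09) and by 0.97 with Nanog_E074 (adjusted p = 3.15e-07). Averaged over the Klf2, Otx2, Lefty1, Nanog and Tbx3 libraries, the boost index of these partners with controls was 3.28 for Pou5f1_E081, 3.01 for Klf2_E058 and 2.52 for Nanog_E074.

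Next, the observed activity was set against an additive expectation, E1 + E2 - baseline, calculated per replicate from EC medians of the matching position and the CC baseline. A log2 ratio of observed over expected activity above 0 is supra-additive and below 0 sub-additive. On Ap1m1 this expectation contains the EC values that chose the enhancers, so its ratios are a description without a test. Pairs of Klf2_E046 had a median log2 ratio of -0.44 ± 0.15 on Ap1m1, the lowest of 57 enhancers, and all 46 partners with an expectation were below 0. These values come from position 2 alone and rest on the 4 EC combinations described above. Nanog_E090 pairs had a median of -0.22 ± 0.02 and ranked 53, with 31 of 39 partners below 0. Lefty1_E094 pairs had a median of 0.01 ± 0.01, with 25 partners on each side of 0. The median over all pairs was -0.04.

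The same comparison was made in linear units of activity. On Ap1m1, where the baseline was 0.59, Lefty1_E094 added 0.600 ± 0.051 to controls and a median of 0.610 ± 0.035 to other enhancers. Nanog_E090 added 0.48 ± 0.05 to controls and 0.34 ± 0.04 in pairs. Klf2_E046 added 0.705 ± 0.114 to controls and 0.288 ± 0.042 in pairs. Its control value came from position 2 only and was used to choose it, while the pair value covered both positions, so the 2 are not like quantities. The control values of Lefty1_E094 and Nanog_E090 were also used to choose them, so their comparisons are a description only. Of their EC combinations, 79 of 122 and 42 of 63 were in position 2, against 187 of 342 and 116 of 208 pair combinations. On the Tbx3 promoter Klf2_E046 added more in pairs (0.86 ± 0.16) than to controls (0.43 ± 0.11), where its control value rested on 5 EC combinations.

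On the developmental promoters the ratio could be tested with limma. Summed over the 7 libraries, 197 of 345 Lefty1_E094 pair measurements were supra-additive and 14 sub-additive, against 32.1% and 10.8% of all pair measurements. For Nanog_E090 the counts were 51 and 49 of 232. For Klf2_E046 they were 83 and 12 of 261, without the Sox2 library, a supra-additive share close to the background of 30.6% in those 6 libraries (sub-additive background 11.2%). With at least 5 EC combinations per position, 17 of 152 Klf2_E046 measurements were supra-additive. That minimum left no Klf2_E046 value in the Otx2, Fgf5 and Tbx3 libraries, and its background share was not calculated. The 17 of 152 is therefore not set against the counts above. Sub-additive counts were as low as 3 (Klf2_E046, without replicate 2), 3 (Lefty1_E094, without replicate 1) and 27 (Nanog_E090, without replicate 1). That of Klf2_E046 rose to 19 with the replicate number as a block or with each library fitted on its own. Background shares under these settings were not calculated, so these changes are not read as particular to the 3 enhancers. Against a multiplicative expectation the developmental median, taken over the library medians, was -0.20 for Klf2_E046, -0.57 for Lefty1_E094 and -0.79 for Nanog_E090. In the Fgf5 library the 3 medians were above 0 (1.99, 0.65 and 0.65), as was that of Klf2_E046 on Tbx3 (0.05). Over all pairs, the developmental medians lay between -0.51 (Sox2) and -0.22 (Klf2), except on Fgf5 (0.79). In the Lefty1 library, 42 of 50 Lefty1_E094 pairs were supra-additive (background 44.2%), as were 22 of 52 Klf2_E046 pairs and 14 of 42 Nanog_E090 pairs. Sub-additive pairs numbered 2, 2 and 5 (background 8.07%). In the Tbx3 library the supra-additive counts were 45 of 50, 39 of 51 and 15 of 34 in the order Lefty1_E094, Klf2_E046 and Nanog_E090 (background 50.9%). Sub-additive there were 5 of 34 Nanog_E090 pairs, and 0 pairs of Lefty1_E094 and of Klf2_E046 (background 7.16%). Klf2_E046 had only 5 EC combinations in the Tbx3 library, 7 in the Lefty1 library and 5 in the Otx2 library. All its expectations in a library rested on these. In each of these 3 libraries only 1 of them had Klf2_E046 in position 1. Every expectation with Klf2_E046 in that position therefore rested on 1 EC combination. The test takes in the spread between replicates, pooled over all libraries for each pair, but not that between EC combinations.

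In the Nanog library 8 of 50, 3 of 49 and 0 of 36 pairs of Lefty1_E094, Klf2_E046 and Nanog_E090 were supra-additive (background 8.21%), while 6, 2 and 11 were sub-additive (background 17.4%). In the Klf2 library 11 of 51, 0 of 53 and 0 of 31 pairs were supra-additive (background 7.68%) and 3, 6 and 10 were sub-additive (background 13.0%). In the Otx2 library 9 of 50, 10 of 47 and 0 of 33 pairs were supra-additive (background 7.88%), while 2, 2 and 10 were sub-additive (background 14.2%). Nanog_E090 thus had no supra-additive pair in these 3 libraries. In the Sox2 library 38 of 48 Lefty1_E094 pairs and 3 of 28 Nanog_E090 pairs were supra-additive, against 42.6% of all pairs, and 1 and 7 were sub-additive (background 8.28%). In the Fgf5 library the counts were 44 of 46, 19 of 28 and, for Klf2_E046 with its single EC combination, 9 of 9 (background 75.2%), and 1 Nanog_E090 pair was sub-additive (background 6.03%). The authors report that expected activities on the Fgf5 promoter were underestimated in the low activity range, which limits all Fgf5 ratios given here.

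Nanog_E090 was sub-additive with Pou5f1_E081 on all 7 developmental promoters, with log2 ratios from -0.28 (Fgf5, adjusted p = 0.0172) to -0.91 (Nanog, adjusted p = 1.54e-06). On Ap1m1 this pair had -0.81, -0.58 and -0.64. With Klf2_E058 it was sub-additive on 6 of the 7, down to -0.98 on the Nanog promoter (adjusted p = 1.5e-06), but not on Fgf5 (-0.07, adjusted p = 0.575). With Nodal_E159 the median log2 ratio over the 7 libraries was -0.66.

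Pou5f1_E084 was a partner with low ratios for all 3 enhancers. Its own boost index on Ap1m1 was -0.53, below the CC baseline. Its median log2 ratio over developmental libraries was -0.39 with Lefty1_E094, -0.38 with Klf2_E046 and -0.50 with Nanog_E090. On Ap1m1 the log2 ratios were -0.41 ± 0.10, -0.68 ± 0.22 and -0.60 ± 0.11. Lefty1_E094 with Pou5f1_E084 was called sub-additive on the Otx2 promoter at -0.63 ± 0.04 (SD, adjusted p = 0.000153), and on the Fgf5 promoter it was called supra-additive at 0.27 ± 0.19 (adjusted p = 0.0228). The test pooled the spread of a pair over all libraries, so the Fgf5 p-value does not measure the spread of the Fgf5 replicates alone. The Fgf5 ratio still lay below the median of 0.61 over all pairs of that library, 75.2% of which were called supra-additive. Pou5f1_E082 was the other low partner of Klf2_E046, with a median of -0.33, and Otx2_E110 that of Lefty1_E094, with -0.29. Nodal_E156, with Nanog_E090 at -0.87, was measured with an expectation in 1 developmental library only.

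Among the highest ratios, Lefty1_E094 with Otx2_E108 was supra-additive on all 7 developmental promoters, from 0.16 on Otx2 (adjusted p = 0.0124) to 1.19 on Fgf5 (adjusted p = 2.33e-13). On Ap1m1 the same pair lay close to the expectation, with log2 ratios of -0.01, 0.00 and 0.00. Lefty1_E094 with Tbx3_E209 had a median of 0.62 on developmental promoters and 0.05 ± 0.05 on Ap1m1. For Klf2_E046 the highest medians were with Tbx3_E205 (0.63) and Otx2_E114 (0.56), which had -0.47 ± 0.32 and -0.24 ± 0.15 on Ap1m1. A negative ratio on Ap1m1 is not particular to these 2 partners, since all 46 partners of Klf2_E046 had one. That expectation holds the EC values that chose Klf2_E046, so the 2 sets of ratios are not compared. Nanog_E090 with Tbx3_E203 had a median of 0.34, and it was supra-additive in the Sox2, Fgf5, Lefty1 and Tbx3 libraries. Nanog_E090 with Pou5f1_E079 reached 0.99 but was measured with an expectation in 1 developmental library only.

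The most active partner on Ap1m1 was Tbx3_E203 for each of the 3 enhancers. Boost indices of the pair were 1.62, 1.93 and 1.58 with Lefty1_E094, 1.40, 1.63 and 1.40 with Nanog_E090, and 1.36, 1.50 and 1.33 with Klf2_E046. Replicates of the 3 pairs overlapped, except that the lowest with Lefty1_E094 lay above the highest with Klf2_E046. Tbx3_E203 was not the most active partner on the developmental promoters. Averaged over the Klf2, Otx2, Lefty1, Nanog and Tbx3 libraries, its pairs ranked 9 of 50 with Lefty1_E094, 10 of 46 with Klf2_E046 and 3 of 31 with Nanog_E090.

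Conversely, Pou5f1_E081 gave the most active pairs on these 5 developmental promoters with Lefty1_E094 (mean boost index 3.83) and with Klf2_E046 (3.37). On Ap1m1 both pairs ranked 12, of 50 and of 49 partners. With Nanog_E090, Pou5f1_E081 ranked 4 of 31 on the developmental promoters and 31 of 39 on Ap1m1, at 0.51, 0.96 and 0.61. Developmental ranks cover only partners measured in all 5 libraries, so the sets ranked differ for Nanog_E090 and Klf2_E046. Nanog_E074 was 10 of 50 with Lefty1_E094 and 12 of 46 with Klf2_E046 on the developmental promoters, yet next to last with both on Ap1m1. Its pair boost indices on Ap1m1 were 0.81, 1.06 and 0.71 with Lefty1_E094 and -0.12, 0.66 and 0.10 with Klf2_E046. The last partner of both was Pou5f1_E084, at 0.35 ± 0.10 and 0.17 ± 0.20. With Nanog_E090 the Pou5f1_E084 pair had -0.01, 0.03 and -0.03, which is the level of control pairs, and only the pair with Nodal_E160 (-0.08 ± 0.46, 2 combinations) was lower.

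Across partners, the boost index of the pair on Ap1m1 varied with the partner's own boost index on Ap1m1. Pearson's r was 0.76 for Lefty1_E094 (50 partners, Spearman's rho 0.72), 0.66 for Klf2_E046 (49 partners, rho 0.60) and 0.47 for Nanog_E090 (39 partners, rho 0.38). Against the partner's mean boost index on the 5 developmental promoters, r was 0.11, 0.09 and -0.24. On those promoters themselves, pair and partner correlated with r of 0.94, 0.89 and 0.68. The points share libraries and baselines, and partners are not replicates. The gain on Ap1m1 was lower for partners with a higher developmental boost index, with r of -0.58, -0.50 and -0.72, and the gain holds the partner's value on Ap1m1 in its denominator.

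Grouped by the partner's locus, Lefty1_E094 had median gains on Ap1m1 between 0.69 (7 Nanog partners) and 0.88 (7 Otx2 partners). The range was wider for Nanog_E090, from 0.24 (4 Klf2 partners) to 0.74 (5 Otx2 partners), and for Klf2_E046, from 0.30 (6 Tbx3 partners) to 0.59 (5 Fgf5 and 8 Pou5f1 partners). Within loci the partners spread widely, for example from -0.31 to 0.73 among the 6 Nodal partners of Nanog_E090.

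The 3 enhancers were also combined with each other. On Ap1m1, Lefty1_E094 with Nanog_E090 had boost indices of 1.19, 1.48 and 1.09, Lefty1_E094 with Klf2_E046 had 0.92, 1.37 and 1.35, and Nanog_E090 with Klf2_E046 had 0.80, 1.29 and 0.79. These values overlap. None of these pairs exceeded the most active pair of its members, that with Tbx3_E203, on average. Their log2 ratios of observed over expected on Ap1m1 were -0.20 ± 0.09, -0.22 ± 0.28 and -0.52 ± 0.17.

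On developmental promoters, Lefty1_E094 with Nanog_E090 was supra-additive in the Sox2 (0.32, adjusted p = 0.00881), Fgf5 (0.97, adjusted p = 3.79e-08), Lefty1 (0.56, adjusted p = 9.36e-05) and Tbx3 (0.64, adjusted p = 1.59e-05) libraries. Klf2_E046 with Lefty1_E094 was supra-additive on the Lefty1 (0.52, adjusted p = 0.000174) and Tbx3 (0.99, adjusted p = 3.27e-07) promoters. Klf2_E046 with Nanog_E090 was supra-additive on the same promoters, at 0.37 (adjusted p = 0.00363) and 0.53 (adjusted p = 0.000206). The expectations of these Klf2_E046 pairs rested on its 7 EC combinations in the Lefty1 library and 5 in the Tbx3 library. In each of these libraries only 1 EC combination had Klf2_E046 in position 1. In the Klf2, Otx2 and Nanog libraries no pair among the 3 passed the test in either direction.

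Pairs were also compared by order and orientation. On Ap1m1 the boost index of a pair was higher with the chosen enhancer in position 2 than in position 1, by a median of 0.17 ± 0.10 for Klf2_E046 (29 of 40 partners), 0.14 ± 0.02 for Lefty1_E094 (39 of 50) and 0.15 ± 0.06 for Nanog_E090 (23 of 31). Over all enhancers the median of this difference was close to 0 on Ap1m1, with single enhancers from -0.54 to 0.24. With the enhancer on the plus strand, pairs were higher by 0.24 ± 0.06 for Klf2_E046 (36 of 42 partners), 0.14 ± 0.03 for Lefty1_E094 (47 of 50) and 0.27 ± 0.04 for Nanog_E090 (30 of 31). The enhancers ranked 9, 18 and 8 of 58 in this strand difference, whose extremes were -0.49 and 0.56. The strand of the partner made little difference, between -0.02 and 0.03 on Ap1m1. On developmental promoters the strand difference ranged from 0.02 (Sox2) to 0.28 (Klf2) for Nanog_E090 and from 0.03 (Sox2) to 0.13 (Nanog) for Lefty1_E094. For Klf2_E046, without Fgf5, it ranged from -0.17 (Sox2, 7 partners) to 0.29 (Lefty1). The position difference on these promoters ranged from 0.07 (Fgf5) to 0.24 (Otx2) for Nanog_E090 and from -0.002 (Sox2) to 0.18 (Nanog) for Lefty1_E094. For Klf2_E046 it ranged from -0.004 (Tbx3) to 0.37 (Sox2, 7 partners).

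The gain, in which the partner's EC median was taken in its own position, also differed by position. On Ap1m1, Lefty1_E094 had a median gain of 0.65 ± 0.04 in position 1 and 0.96 ± 0.08 in position 2. Nanog_E090 had 0.33 ± 0.15 and 0.60 ± 0.09, and Klf2_E046 had 0.29 ± 0.12 and 0.59 ± 0.10. With the enhancer in position 1 only, 43 of 48 Lefty1_E094 pairs, 12 of 31 Nanog_E090 pairs and 14 of 41 Klf2_E046 pairs had a gain called above 0 on Ap1m1, against 29.2% of all pairs with the added enhancer there. In position 2 the counts were 46 of 47, 25 of 35 and 34 of 44, against 51.9%.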

How the data were processed

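Barcodes in complementary DNA (cDNA) and plasmid DNA (pDNA) were counted by the authors, divided by the total of each sample, and turned into a cDNA:pDNA ratio per barcode. The deposited activity is the mean ratio over the barcodes of a combination, with 1 value per biological replicate. Fragments were assigned to barcodes by inverse PCR (iPCR) and Bowtie2. Of 73 samples, 48 were cDNA, 16 pDNA and 9 iPCR. How sequencing runs were combined is not given in the sources used here, and barcode counts were not analysed here, so depth is unknown. The deposited expectation and boost columns were not used.

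Medians were recalculated per replicate on the log2 scale (Python 3.11.15, pandas 2.3.3), and a pair's value is the median over its orders and orientations. Pairs were tested with limma 3.58.1 (R 4.3.3), two-sided, in 1 fit over 24 library-replicates, with Benjamini-Hochberg adjustment over all pairs at 5%. The fit took 1 spread per pair over all libraries. A p-value within a library therefore does not measure the replicate spread of that library alone. Across the members, the median SD between replicates ranged from 0.14 in the Nanog library to 0.30 in the Fgf5 library. Only the gain contrast of Ap1m1 against the developmental libraries was tried on simulated data, with independent noise and no missing values. The additivity test was not. ± gives the SD over 3 replicates, or the SE where stated. The 3 enhancers, the lists and the rules were chosen with earlier results of these data known. Named pairs were those among the 3, those with Klf2_E058, Pou5f1_E081, Pou5f1_E084 and Nanog_E074, the most active on Ap1m1, and for each enhancer the 2 most extreme called contrasts and the 2 highest and 2 lowest developmental additivity medians. Other partners are named for their rank, after their values were seen. Alternatives covered summaries, minimum numbers of combinations, controls, expectation, libraries, scaling, order, replicates and the replicate block. Gene positions are from the RefSeq annotation of the same build. Fragment sequences beyond the primers, and motifs, were not analysed here.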

Additional observations from a re-analysis of the deposited data

Results flagged for a closer look

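The gain over the partner differed between Ap1m1 and the 7 developmental promoters by limma's test of the difference itself in 5 pairs of Klf2_E046, 39 of Lefty1_E094 and 20 of Nanog_E090, all lower on Ap1m1. Background shares stand beside these counts in the report, and with gains scaled by library the direction turned for Lefty1_E094. Of the named pairs below, Lefty1_E094 with Tbx3_E205, Otx2_E108 and Otx2_E110, and Klf2_E046 with Otx2_E115, then lost their call. Lefty1_E094 with Pou5f1_E084, Tbx3_E203 and Tbx3_E209 was then called higher on Ap1m1.

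Among the named pairs, those with a called difference, on the log2 scale as Ap1m1 minus the developmental mean, were as follows. Klf2_E046 differed by -1.40 with Otx2_E115 and by -1.65 with Tbx3_E206. Lefty1_E094 differed by -1.71 with Fgf5_E037, by -1.57 with Tbx3_E205, by -1.26 with Otx2_E110 and by -1.07 with Otx2_E108. It also differed by -1.06 with Tbx3_E203, by -0.87 with Tbx3_E209 and by -0.80 with Pou5f1_E084. Nanog_E090 differed by -2.15 with Nodal_E157, by -1.91 with Nodal_E162, by -1.47 with Tbx3_E203 and by -1.22 with Pou5f1_E084. Groups of 3 replicates were not examined for outlying samples.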

How the results depend on the processing

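Of the main counts and medians, 270 values under the alternatives stayed within 1.5 times the count or 1 SD of the median, 45 moved and 7 turned sign. Of values for single named pairs, 595 kept direction and call, 17 gained a call, 14 lost one and 22 turned sign. The limits are the 4 EC combinations of Klf2_E046 on Ap1m1, its few combinations in the Sox2 and Fgf5 libraries, the 3 replicates and the unknown depth. The cause of each change was not tested, except where fewer pairs could be tested.

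For Klf2_E046, pairs with a lower gain on Ap1m1 (5 of 7) became 1 of 1 with a minimum of 3 combinations, 14 of 16 without the Fgf5 library, 37 of 44 without Sox2 and Fgf5, 2 of 7 scaled, 17 of 44 scaled without these libraries (4 higher), and 2 of 2 in position 1. Its gains above 0 on Ap1m1 (32) became 14 in position 1. Its supra-additive pairs (83) became 17 of 152 with at least 5 EC combinations per position, which the Otx2, Fgf5 and Tbx3 libraries lacked. Its sub-additive pairs (12) became 19 with each library fitted on its own. Its developmental median log2 ratio (0.26) became -0.20 under a multiplicative expectation, 0.0311 with at least 5 EC combinations, and 0.4145 and 0.0936 in positions 1 and 2. With that minimum it had no value on Ap1m1.

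For Lefty1_E094, lower and higher gains on Ap1m1 (39 and 0) became 1 and 23 scaled, 2 and 18 scaled without Sox2 and Fgf5, and 1 was higher in position 2. Its median log2 ratio on Ap1m1 (0.01) became -0.15 multiplicative, -0.0072 in position 2, 0.0452 in position 1, -0.0026 over both positions, 0.0034 with means, 0.0261 with at least 3 combinations, 0.0266 with at least 5 EC combinations and 0.0537 without the 3 controls shuffled from E46. Its developmental median (0.36) became -0.57 multiplicative, 0.32 with means and 0.22 without Fgf5, and its sub-additive pairs (14) became 8 without the E46 controls.

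For Nanog_E090, gains above 0 on Ap1m1 (25) became 12 in position 1, and 1 pair was higher on Ap1m1 when scaled, when Sox2 and Fgf5 were left out, and with both. Its median log2 ratio on Ap1m1 (-0.22) became -0.36 multiplicative and -0.18 in position 1, and its developmental median (0.06) became -0.79 multiplicative, -0.0098 without the E46 controls and -0.022 without Fgf5.

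Leaving out 1 replicate, gains above 0 on Ap1m1 ranged from 14 to 29 for Klf2_E046 and from 13 to 23 for Nanog_E090. Sub-additive pairs ranged from 3 to 9 for Klf2_E046, from 3 to 11 for Lefty1_E094 and from 27 to 41 for Nanog_E090. The lowest was without replicate 2, 1 and 1, and Lefty1_E094 had 7 without replicate 2, while Klf2_E046 had 5 without replicate 1. Background shares for these counts were not calculated. The Lefty1_E094 median on Ap1m1 ranged from -0.012 to 0.024, and was -0.0008 without replicate 3.

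With scaled gains the named contrasts turned positive for Lefty1_E094 with Nanog_E074 (0.97), Pou5f1_E081 (0.92), Pou5f1_E084 (0.45), Tbx3_E203 (0.43), Tbx3_E209 (0.41), Otx2_E110 (0.29) and Otx2_E108 (0.26), and for Klf2_E046 with Pou5f1_E081 (0.10). The contrast of Lefty1_E094 with Klf2_E058 became 1.30 and called (adjusted p = 2.98e-09), and those of Lefty1_E094 with Tbx3_E205 (-0.04, adjusted p = 0.82) and Klf2_E046 with Otx2_E115 (-0.32, adjusted p = 0.159) lost their call. Those of Lefty1_E094 with Otx2_E110 and Otx2_E108 lost theirs too. Its contrasts with Pou5f1_E084, Tbx3_E203 and Tbx3_E209 were called higher on Ap1m1. Near 0, the Lefty1_E094 contrast with Klf2_E058 became -0.0006 with at least 5 EC combinations, -0.11 over both positions and -0.0015 in position 2, that with Nanog_E074 0.0004 in position 2, and that of Nanog_E090 with Nodal_E159 0.12 in position 1. Gains on Ap1m1 that turned were Klf2_E046 with Nanog_E074 (0.0123 without the E46 controls, 0.0749 without replicate 1, 0.15 in position 2), with Pou5f1_E081 (-0.0283 without replicate 3, up to 0.2786 without replicate 1) and with Tbx3_E205 (-0.0128 in position 1), and Nanog_E090 with Klf2_E058 (0.0538 without the E46 controls, 0.0755 without replicate 1, down to -0.1221 without replicate 3, 0.23 in position 2) and with Pou5f1_E081 (0.0901 in position 2).

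Same-numbered replicates of different libraries correlated in their deviations with a mean r of 0.18 (-0.08 to 0.35, 65 of 84 above 0.1), against -0.09 for different numbers, and the own number was highest in 156 of 168 comparisons. The labels do not tie the numbers across libraries. With the replicate number as a block, sub-additive pairs of Klf2_E046 became 19, and no other main count moved by over 1.5 times. The scaled, order and Sox2 with Fgf5 alternatives were chosen after seeing the data.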
